A study of Mus musculus with 9 samples.

Results

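Carriers of the SLC families and pumps of the ABC subfamilies were examined as host genes of circular RNAs (circRNAs) in mouse liver. A circRNA, called a ring below, was counted among them when the deposited table gave a single host gene whose symbol starts with Slc or Slco and a digit, or with Abca to Abcg and a digit, with 1 ABC gene set aside. The choice went by gene symbol, but was made with earlier results of these data known. It gave 266 rings of 11312 in all, from 94 host genes of 3929 host genes or gene groups. Slc4a1ap matched by its symbol although it encodes an adaptor protein and not a carrier.

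Liver RNA of wild-type (WT) mice of the C57 BL6 strain was sequenced in 3 groups of 3 libraries. The mice were 8 weeks of age and weighed 20 g on average. The dmPGE2+APAP mice received 300 µg/kg dmPGE2, a stable analogue of prostaglandin E2, and 1 hour later 500 mg/kg acetaminophen (APAP), both into the peritoneum. The APAP mice received the same dose of APAP, and the control mice received saline. Livers were taken 6 hours after APAP, whole tissue was used, and all groups share strain, genotype and age. No label ties a library to a numbered animal, and the p-values therefore measure only the spread between these libraries, which may be technical.

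SLC carriers move amino acids, bile acids, ions, sugars, lipids and metals down or along with gradients, while ABC transporters pump their substrates with energy from ATP. Hepatocytes take up organic anions and drugs from sinusoidal blood through carriers of the Slco family, and export bile salts and conjugates into bile through Abcb11 and Abcc2. APAP is cleared largely as glucuronide, sulfate and glutathione conjugates. A ring forms when a splice donor is joined back to an acceptor upstream of it in the same transcript, and a read across that back-splice junction is the unit counted here. The counts therefore describe rings and not the transporter mRNA or protein.

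The rings on which the results turn are shown by their junctions. In each line the last 20 bases of the ring, at the back-splice donor, are in lower case, and the first 20 bases, at the back-splice acceptor, are in capitals. Sequences are 5′ to 3′ on the strand of the gene, from GENCODE M21 transcripts on GRCm38. The first 4 lines, all of Slco1b2, show which rings share an end. The others are the leading rings of Abcc2 and Slc7a2, an Abcc2 ring with few reads in APAP livers, and rings of 3 hosts listed at 0 in a whole group.
Slco1b2 exons 9 to 12, novel_circ_0011962, chr6:141663578-141672313, plus strand: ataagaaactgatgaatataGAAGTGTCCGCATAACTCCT
Slco1b2 exons 4 to 8, novel_circ_0011955, chr6:141648489-141657606, plus strand: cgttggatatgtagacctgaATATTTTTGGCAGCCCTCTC
Slco1b2 exons 5 to 8, novel_circ_0011959, chr6:141652443-141657606, plus strand: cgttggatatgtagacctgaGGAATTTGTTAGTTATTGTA
Slco1b2 exons 4 to 9, novel_circ_0011956, chr6:141648489-141663820, plus strand: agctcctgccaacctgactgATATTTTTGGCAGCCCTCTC
Abcc2 exons 12 to 16, novel_circ_0006321, chr19:43810471-43814814, plus strand: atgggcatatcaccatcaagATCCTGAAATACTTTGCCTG
Abcc2 exons 17 to 24, novel_circ_0006328, chr19:43816797-43825990, plus strand: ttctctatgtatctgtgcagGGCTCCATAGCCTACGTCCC
Slc7a2 exons 2 to 8, novel_circ_0013652, chr8:40898937-40911097, plus strand: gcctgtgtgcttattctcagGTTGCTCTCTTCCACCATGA
Slc44a1 exons 2 to 4, novel_circ_0010289, chr4:53481464-53517681, plus strand: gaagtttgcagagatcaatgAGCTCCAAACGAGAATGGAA
Slc25a33 exons 2 to 6, novel_circ_0010081, chr4:149749049-149762546, minus strand: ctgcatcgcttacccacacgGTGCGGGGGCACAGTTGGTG
Slc1a2 exons 2 to 6, novel_circ_0007657, chr2:102735944-102748595, plus strand: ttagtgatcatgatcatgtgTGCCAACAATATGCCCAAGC
The exons 4 to 8 and 4 to 9 rings of Slco1b2 have the same capitals, because both join back to exon 4. The exons 4 to 8 and 5 to 8 rings have the same lower case part, because both leave from the end of exon 8. In the Slc7a2 ring the annotated start codon begins at ring position 17, counted from the first base in capitals.

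Libraries held 99102 to 120531 back-splice reads in dmPGE2+APAP livers and 69268 to 109453 in APAP livers. In control livers they held 154449, 129971 and 4362. The third control library stands apart by depth: 1 read there is 229 CPM (reads scaled to a library total of 1000000 back-splice reads), against 6.47 to 14.4 CPM in the other 8. Back-splice reads were 1.43% of the back-splice and other reads at the ring sites of control 3, against 10.5% to 22.5% in the other 8 libraries, over the rings where both could be read. The part of this gap in the results was not tested. For the main test, the total counts of calls and the leading differences from control are given with and without this library. Counts of hosts whose group ranges do not overlap are given without it only for APAP against control. No library lists a count of 1, and the lowest entry above 0 is 2, so a gene listed at 0 may still have had a read. The control columns carry a name that the labels do not explain, and were taken as the controls because the other 6 columns name the other groups. Of 13 hepatocyte marker genes, 11 had rings, and their summed level was 21110 to 25247 CPM in dmPGE2+APAP, 22749 to 25868 CPM in APAP and 22609 to 36222 CPM in control libraries. Slc10a1 and Serpina1a among them were at 0, and 4 of the 11 (Slco1b2, Slc27a5, Abcb11 and Abcc2) are themselves transporter hosts. Rings were listed for 2 of 8 Kupffer cell and macrophage markers, 5 of 7 sinusoidal endothelial, 1 of 7 stellate, 1 of 5 cholangiocyte, 1 of 5 neutrophil and lymphocyte and 0 of 3 red cell markers.

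Transporter rings made up between 1.73% and 2.13% of the back-splice reads in every library. Their share averaged 1.94 ± 0.14% in dmPGE2+APAP livers, 1.84 ± 0.10% in APAP livers and 2.09 ± 0.04% in control livers (SD, n = 3 each). Without control 3 the control mean was 2.07%. Fewer cells that carry a ring and less of the ring per cell cannot be told apart in whole tissue. Few hosts held most of these reads: 5 of the 94 hosts held 52.0% of the 17748 transporter reads, and 12 held 78.1%.

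Hosts were grouped by symbol family, and the class names give the usual cargo of a family, which need not hold for each member. The organic anion and bile acid families led, with 5 hosts and 22.6% of the transporter reads, most of them from Slco1b2. Slc10a7 is counted there by its family although its protein is known for other roles, and the lead over ABC subfamily C depends on it. ABC subfamily C, which includes exporters of conjugates, followed with 5 hosts and 17.2% of the reads, most of these from Abcc2. The 13 amino acid carriers held 13.4%, led by Slc7a2. Fatty acid and lipid carriers held 8.57%, and carriers of monocarboxylates, citrate, sulfate and phosphate held 8.39%, with Slc16a10 counted there by its family. The 12 hosts of the ion exchanger and cotransporter families, with Slc4a1ap counted by its symbol, held 6.8%. The 13 mitochondrial carriers held 6.69% and ABC subfamily D, the peroxisomal and lysosomal pumps, 4.84%. Subfamily A held 3.09% and subfamily B, with the bile salt pump, 1.73%. Levels of different hosts are sums of junction reads, which carry no length term.

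The 94 hosts range from 44 with a single ring to Slc4a4, the gene of an electrogenic sodium bicarbonate cotransporter, with 22. Abcc2 had 16 rings, Abcb11 had 13, Slc25a13 had 12, Slc7a2 had 11 and Slc27a2 had 10. Of the 266 rings, 107 were seen in 1 library only and 14 in all 9. A host or ring was tested when 3 or more of the 9 libraries held 5 or more reads of it. This left 50 of 94 hosts (53.2%, against 60.0% of all host genes) and 92 of 266 rings (34.6%, against 38.3% of all rings). The 44 hosts left out held 2 to 35 reads each over all libraries, with a median of 12, and 3.29% of the transporter reads together. Among them were Abcg2, an efflux pump of the bile canaliculus, Slco1a1 and Slco2b1, which take up organic anions, and Slc40a1, which exports iron.

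In structure the transporter rings resembled the rest of the table. The median genomic span was 7795.5 bases, against 7797.5 bases over all rings, and 93.6% were called exonic in both. Both ends lay at exon ends of a single GENCODE transcript in 232 rings. Of these, 198 lay wholly in coding sequence and 32 held coding and untranslated sequence. None of the 232 began at exon 1 or ended at the last exon. They spanned a median of 4 exons and at most 16. Exon 2 was the acceptor in 63, and 29 rings from 19 hosts held the annotated start codon. Rings of one host often shared an end: of 188 rings in hosts with 2 or more of them, 111 shared the acceptor and 85 the donor with another ring of that host. In Slc25a25 and Slc27a2, 2 rings with 3 and 5 reads lay on the strand opposite to the gene.

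**Figure D1:**
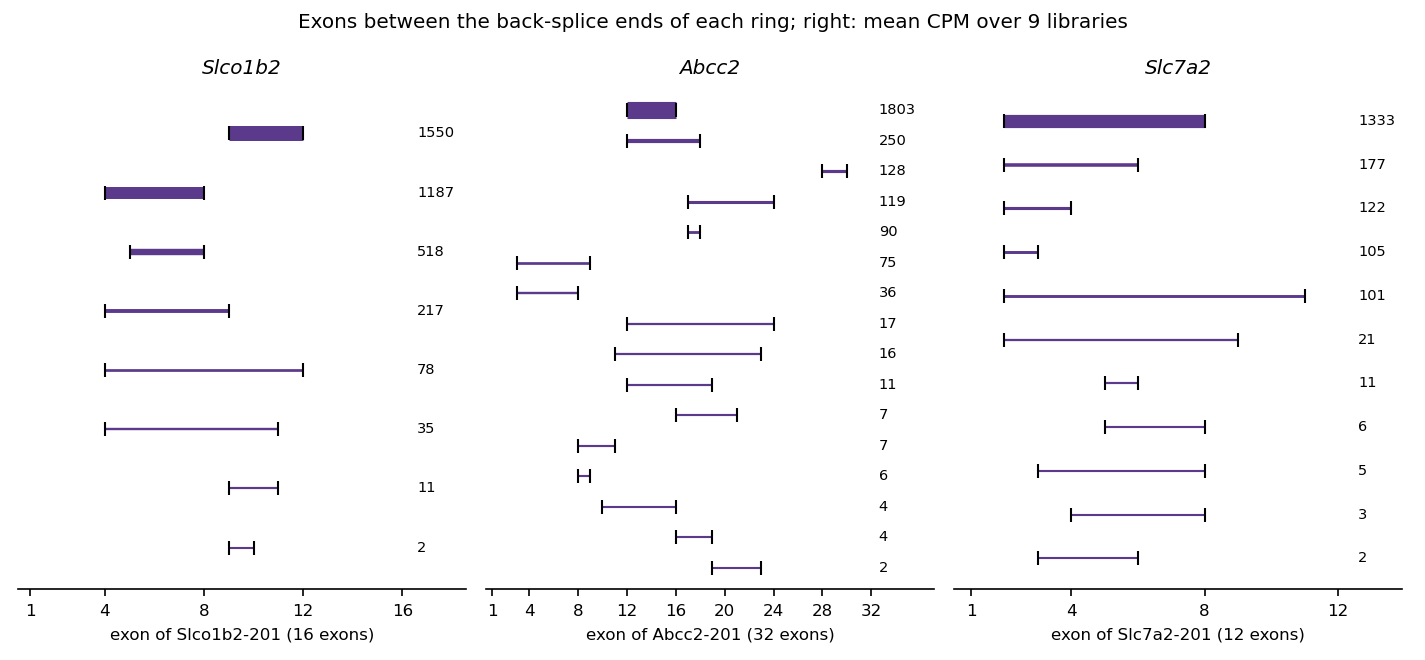
Rings of Slco1b2, Abcc2 and Slc7a2 whose ends lie at exon ends, drawn by exon number of the named transcript (x axis), with line width and the number at the right giving the mean CPM over 9 libraries. A single ring leads in Abcc2 (exons 12 to 16, 1803 CPM) and in Slc7a2 (exons 2 to 8, 1333 CPM), while Slco1b2 has rings of 1550 and 1187 CPM over separate exons. Control 3, where 1 read is 229 CPM, has the same weight in these means as each other library and raises both Slco1b2 values.

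The ring map shows how the leading hosts differ in layout. Slco1b2 had 9 rings, of which the exons 9 to 12 ring held 43.9% of the host's reads. Exon 4 was the acceptor of 4 of its rings and exon 9 of 3. Abcc2 rings began at exons 3 to 28 of 32, and the exons 12 to 16 ring held 67.9% of the reads. In Slc7a2 6 of 11 rings joined back to exon 2, and the exons 2 to 8 ring held 69.6%. Slc16a10, Slc33a1 and Slc20a2 rested almost on 1 ring each, with 94.2%, 95.3% and 89.4% of the host's reads. Slc4a4 was the opposite, its most abundant ring holding 22.7% of its reads.

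The 3 comparisons of groups were made with edgeR's quasi-likelihood test and Benjamini-Hochberg adjustment over all 2358 host genes and over all 4331 rings tested. None of the 50 transporter hosts and none of the 92 transporter rings passed an adjusted p of 0.05 in any of the 3 comparisons, with all 9 libraries or without control 3. Over all host genes, 0.339% passed for APAP against control, 0.127% for dmPGE2+APAP against APAP and 0.17% for dmPGE2+APAP against control, and 0.212%, 0.17% and 0.127% without control 3. Over all rings these shares were 0.139%, 0.0693% and 0.115%, and 0.231%, 0.0693% and 0.0924% without control 3. At an unadjusted p under 0.05, edgeR gave 6, 0 and 0 transporter hosts in the same order of comparisons, DESeq2 gave 6, 0 and 2, and limma-voom gave 5, 3 and 3. Some of these hosts reached the minimum of reads through the group in which they are high, so these counts support nothing by themselves. For transporter rings edgeR gave 7, 2 and 2, DESeq2 gave 6, 4 and 2, and limma-voom gave 10, 6 and 8. The same limit holds for these ring counts. Without control 3, edgeR gave 6, 1 and 0 transporter hosts, beside 123, 79 and 87 of all 2358 host genes. For rings it then gave 9, 3 and 3 of the 92, beside 201, 140 and 157 of all 4331, with the same limit. With all 9 libraries the unadjusted background over all host genes was 5.34%, 2.71% and 4.24% in edgeR, 5%, 3.05% and 4.11% in DESeq2 and 7.89%, 5.68% and 6.66% in limma-voom. Over all rings it was 5.06%, 3.74% and 4.34% in edgeR, 5.24%, 3.67% and 4.02% in DESeq2 and 8.34%, 6.65% and 7.43% in limma-voom. After adjustment, limma-voom passed no transporter host or ring, and DESeq2 passed 1 host, Slco1b2, for APAP against control. For that comparison 0.551% of all host genes passed in DESeq2 and 0.0848% in limma-voom.

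For APAP against control the question is what a toxic dose of APAP does to transporter rings. The 3 hosts with an unadjusted p under 0.05 and lower values in APAP livers were Slco1b2, Slc33a1 and Slc1a2, and the 3 with higher values were Slc7a2, Slc25a33 and Slc44a1. Slc25a33 and Slc44a1 were tested only because of their reads in APAP livers, so their p-values are no support. Slc1a2 was tested only because of its reads in control and dmPGE2+APAP livers, so its p-value is no support either. Over all host genes 1.53% had such a p and lower values, and 3.82% had such a p and higher values. The median log2 fold change of the 50 tested hosts was -0.0021, with 25 above 0, against 0.15 over all 2358. Control 3 moves that scale: without it the medians were -0.17 for the transporter hosts, with 19 above 0, and -0.04 for all. Of the 50, 2 are listed at 0 throughout the APAP group and 5 throughout the control group. Their fold changes have no fixed size, but they already lie on their own side of the median, so that size cannot move it. With all 9 libraries this holds for the host medians of the other comparisons too. The CPM ranges of the 2 groups did not overlap in 9 hosts. Abca6, Abcc6, Abcd4, Slc25a33, Slc44a1 and Slc7a2 lay above controls, a pattern seen in 8.1% of all hosts. Abcd3, Slc33a1 and Slco1b2 lay below, a pattern seen in 2.25% of all hosts. In Abcc6 and Abcd3 the nearest libraries of the groups differed by less than a single read. Without control 3, 6 of the 50 lay above and 7 below, against 9.71% and 10.3% of all hosts.

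**Figure D2:**
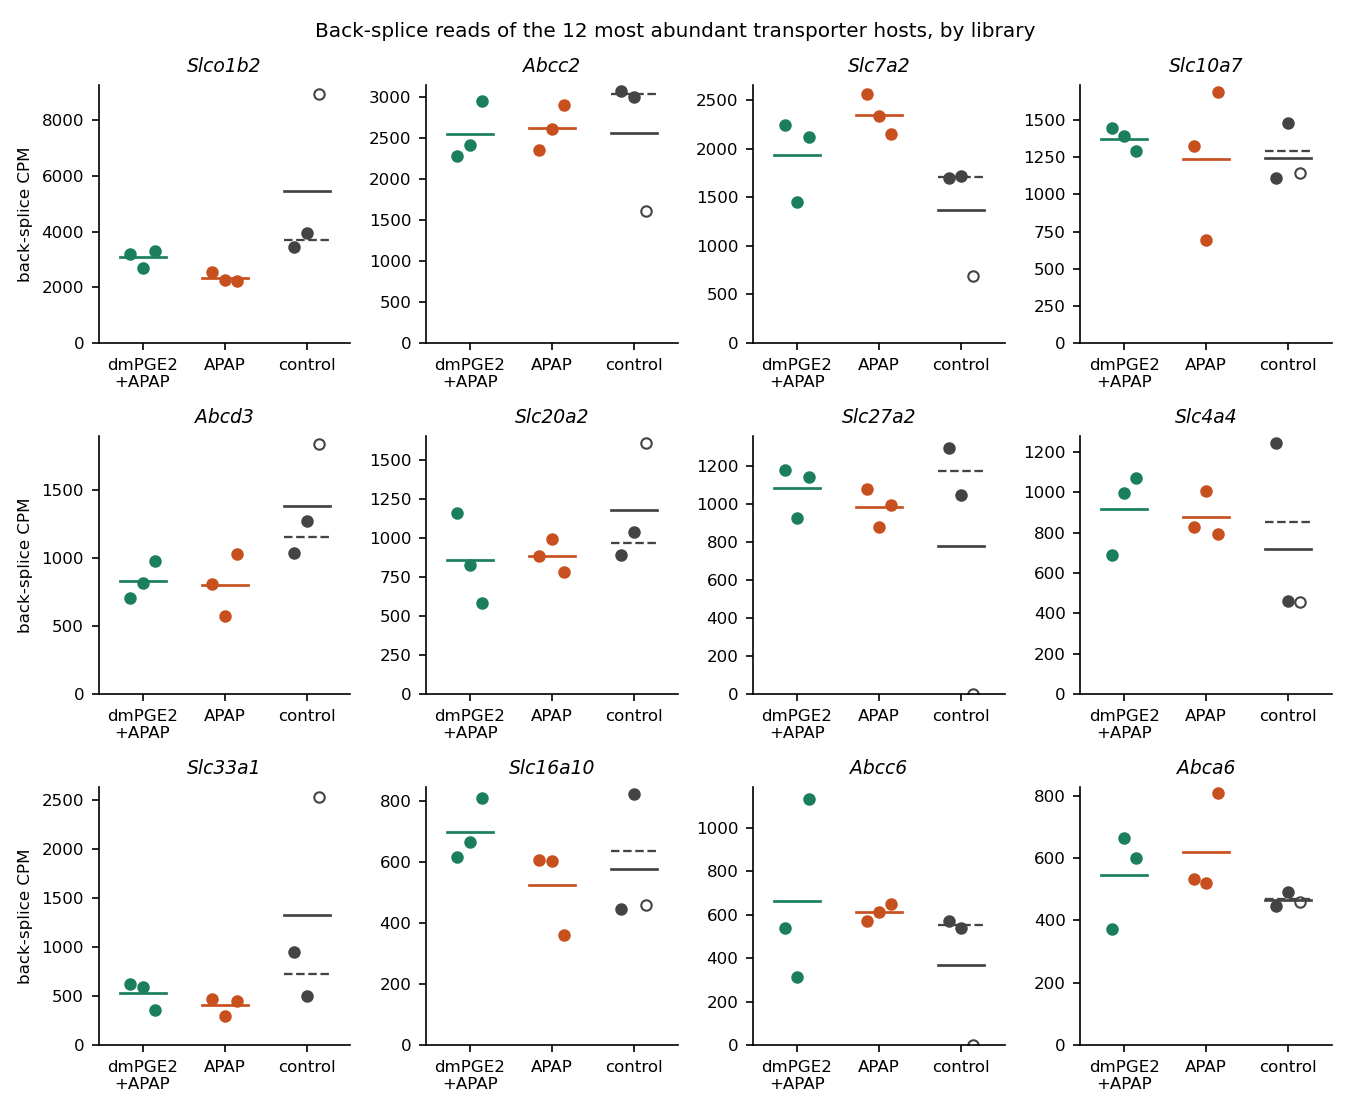
Back-splice CPM (y axis, linear, from 0) of the 12 transporter hosts with the highest mean CPM, 1 point per library, with solid lines for group means. The open circle is control 3 and the dashed line the control mean without it. Slco1b2 shows all 3 APAP libraries (2223 to 2531 CPM) below all control libraries (3451 to 8941 CPM), and Slc7a2 all 3 APAP libraries (2151 to 2567 CPM) above them (688 to 1716 CPM).

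Uptake carriers come first by abundance. Slco1b2 (ENSMUSG00000030236) encodes the main mouse hepatic organic anion carrier of its family, which takes up bilirubin, bile acids, drugs and mushroom toxins. Its rings summed to 2531, 2248 and 2223 CPM in APAP livers, against 3451, 3932 and 8941 CPM in control livers. The last value rests on 39 reads in control 3. All APAP libraries lay below all controls, also when control 3 was set aside. The log2 fold change was -0.84 ± 0.26 (SE), a ratio of 0.559, with an unadjusted p of 0.00142 and an adjusted p of 0.216 in edgeR. Without control 3 it was -0.71 ± 0.17 with an adjusted p of 0.0862. The direction was kept in all 15 alternatives, from -1.09 to -0.69, and the adjusted p ranged from 0.0105 to 0.861. It passed when libraries were scaled by their totals alone (-1.09, adjusted p = 0.0105) and in DESeq2 (-0.81, adjusted p = 0.0315), both with control 3 included. With the scaling by totals 0.466% of all host genes passed.

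In dmPGE2+APAP livers the Slco1b2 rings summed to 3211, 2684 and 3319 CPM, all 3 above the APAP libraries and all 3 below the controls. Against APAP the log2 fold change was 0.42 ± 0.25, with an unadjusted p of 0.0979 and an adjusted p of 1 in edgeR. Without control 3, which enters this comparison only through the shared fit, it was 0.41 ± 0.16. The unadjusted p was then 0.0129 in edgeR, and it did not pass after adjustment. Against control the log2 fold change was -0.42 ± 0.26, and -0.30 ± 0.17 without control 3, again with an adjusted p of 1. These comparisons share libraries, so they are not independent. Neither passed, and a p over the threshold does not show that the groups are alike.

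The leading Slco1b2 rings did not have the same pattern across the groups. The exons 9 to 12 ring had 1303, 928 and 1228 CPM in dmPGE2+APAP, 1113, 1014 and 1083 CPM in APAP and 1819, 1793 and 3668 CPM in control livers. Both APAP-treated groups lay below the controls for this ring, and they overlapped each other. The exons 4 to 8 ring had 1112, 1090 and 1368 CPM in dmPGE2+APAP, 736, 758 and 679 CPM in APAP and 874, 1316 and 2751 CPM in control livers. For this ring APAP lay below both other groups, and dmPGE2+APAP overlapped control. None of these ring differences passed in edgeR: the exons 9 to 12 ring had an adjusted p of 0.801 for APAP against control (log2 fold change -0.78 ± 0.38) and of 0.241 without control 3 (-0.84 ± 0.25), and the exons 4 to 8 ring an adjusted p of 1 for dmPGE2+APAP against APAP (0.77 ± 0.39).

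**Figure D3:**
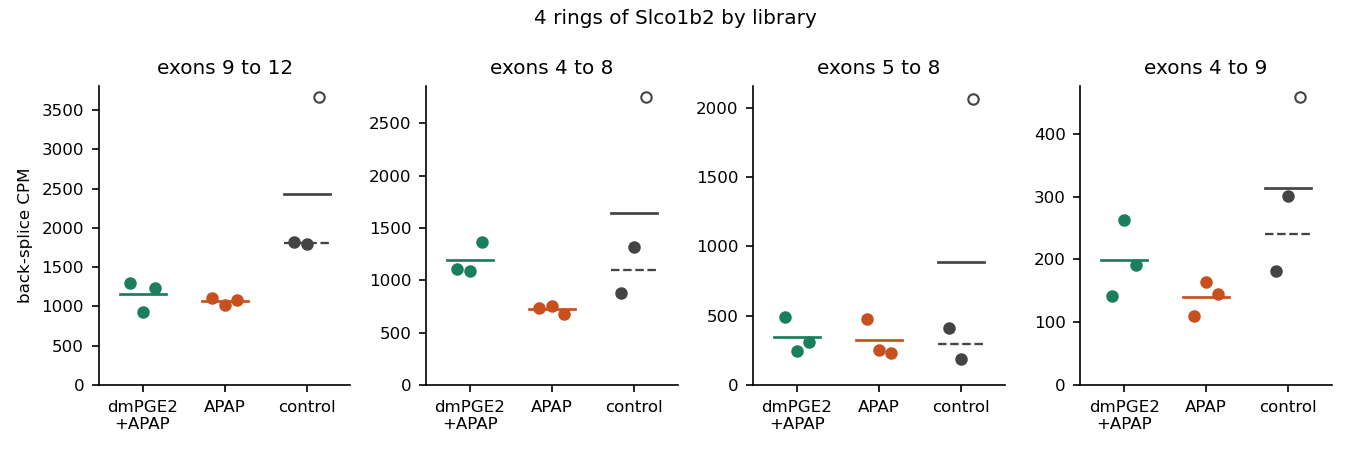
Back-splice CPM (y axis, linear, from 0, scale differs by panel) of 4 rings of Slco1b2, 1 point per library, solid lines for group means, open circle for control 3 and dashed line for the control mean without it. The exons 4 to 8 ring is at 1090 to 1368 CPM in dmPGE2+APAP and 679 to 758 CPM in APAP livers, while the exons 9 to 12 ring overlaps between those groups.

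The share of the exons 4 to 8 ring in the reads of these 2 rings does not depend on library scaling. It was 46.0% (95% Wilson interval 40.4 to 51.8), 54.0% (47.1 to 60.8) and 52.7% (47.0 to 58.3) in dmPGE2+APAP livers. In APAP livers it was 39.8% (33.3 to 46.7), 42.8% (36.0 to 49.8) and 38.5% (30.4 to 47.4). Control livers had 32.5% (28.1 to 37.1), 42.3% (37.6 to 47.2) and 42.9% (26.5 to 60.9). All dmPGE2+APAP libraries lay above all others. The mean was 10.5 percentage points higher in dmPGE2+APAP than in APAP livers, with p = 0.1 in a two-sided exact permutation test, which is the lowest value possible with 3 libraries a group. Against control it was 11.7 percentage points higher, also with an exact permutation p of 0.1, and APAP against control gave 1.16 points and an exact permutation p of 0.9. This pair of rings was compared after its values were seen. The intervals cover counting error only.

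Slc10a7, grouped with the bile acid carriers by family though its protein is known for roles in calcium handling and bone, had 1444, 1392 and 1289 CPM in dmPGE2+APAP, 1325, 694 and 1689 CPM in APAP and 1107, 1477 and 1146 CPM in control livers. The groups overlapped and no comparison passed, with log2 fold changes of 0.01 ± 0.35 for APAP against control (-0.14 ± 0.27 without control 3) and 0.19 ± 0.33 for dmPGE2+APAP against APAP. Its exons 2 to 4 ring (novel_circ_0013845) is one of the few leading rings for which the reads at the same site that do not cross the junction could be read in every library. The circular share there was 58.5%, 59.9% and 60.2% in dmPGE2+APAP and 58.7%, 38.7% and 67.4% in APAP livers. In control livers it was 49.7%, 66.8% and 11.6%, the last from 5 back-splice and 38 other reads in control 3 (95% Wilson interval 5.07 to 24.5). Over 168 transporter rings with usable values the median circular share was 9.37%, against 17.4% over 9559 rings of the table. Values were unusable for 36.8% of transporter rings and 15.5% of all rings, so these medians cover different parts of each set.

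The canalicular pumps passed in no comparison. Abcc2, which exports glucuronide and glutathione conjugates into bile, had 2282, 2412 and 2944 CPM in dmPGE2+APAP, 2356, 2604 and 2902 CPM in APAP and 3075, 3001 and 1605 CPM in control livers. The 2 deep control libraries lay above all 6 others, and control 3, with 7 reads, lay below them. The log2 fold changes were -0.02 ± 0.27 for APAP against control and -0.03 ± 0.27 for dmPGE2+APAP against control, and without control 3 they were -0.27 ± 0.18 and -0.29 ± 0.18. None passed in edgeR (adjusted p = 1 with all libraries, and 0.93 and 1 without control 3). Abcb11, the bile salt export pump, had 224, 394 and 331 CPM in dmPGE2+APAP, 276, 119 and 101 CPM in APAP and 233, 239 and 0 CPM in control livers, with overlapping groups. Its log2 fold change was 0.92 ± 0.74 for dmPGE2+APAP against APAP and -0.29 ± 0.77 for APAP against control, both with an adjusted p of 1 in edgeR, and -0.53 ± 0.65 for APAP against control without control 3.

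Within Abcc2 a smaller ring varied more than the host sum. The exons 17 to 24 ring (novel_circ_0006328) had 26, 26 and 12 reads in dmPGE2+APAP, 3, 0 and 5 reads in APAP and 32, 24 and 0 reads in control livers. Every dmPGE2+APAP library was above every APAP library, and the 2 deep controls lay within the dmPGE2+APAP range in CPM. The log2 fold change was 2.71 ± 1.07 for dmPGE2+APAP against APAP (unadjusted p = 0.0113, adjusted p = 1 in edgeR) and -2.43 ± 1.08 for APAP against control (unadjusted p = 0.024, adjusted p = 0.801). Without control 3 the second was -2.76 ± 0.99, with an adjusted p of 0.684. The leading exons 12 to 16 ring of the same host had 1626, 1443 and 1847 CPM in dmPGE2+APAP, 1362, 1910 and 2079 CPM in APAP and 2046, 2308 and 1605 CPM in control livers, with every pair of groups overlapping.

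Other ABC hosts were less abundant. Abcd3, a pump of the peroxisomal membrane for branched and long-chain acyl groups, had 705, 817 and 976 CPM in dmPGE2+APAP, 810, 576 and 1025 CPM in APAP and 1036, 1270 and 1834 CPM in control livers. Both APAP-treated groups lay below the controls, though 1025 and 1036 differ by less than a single read, and they overlapped each other. The log2 fold change was -0.55 ± 0.38 for APAP against control (adjusted p = 1 in edgeR), and -0.59 ± 0.29 without control 3 (unadjusted p = 0.0483, adjusted p = 0.909). Abcc6, whose loss causes ectopic mineralisation in humans and mice, had 539, 313 and 1132 CPM in dmPGE2+APAP, 571, 612 and 650 CPM in APAP and 570, 539 and 0 CPM in control livers. Its exons 21 to 22 ring (novel_circ_0013048) was listed with 0, 5 and 47 reads in dmPGE2+APAP, 0, 35 and 0 reads in APAP and 0 reads in all control libraries. This ring had the smallest p of the tested transporter rings (unadjusted p = 0.000726 and adjusted p = 0.333 for dmPGE2+APAP against control, and 0.00161 and 0.349 for APAP against control, in edgeR), although 2 of the 9 libraries hold nearly all of its reads. Without control 3 the adjusted p was 0.711 for dmPGE2+APAP against control and 0.661 for APAP against control. The ring was tested only because of its reads in the treated groups, so these p-values are no support. Abca6, an ABC transporter of a subfamily linked to lipids, had 533.7, 521 and 808 CPM in APAP livers, against 447, 492 and 459 CPM in control livers. These did not overlap, but the log2 fold change of 0.44 ± 0.49 was smaller than its error, as was that of 0.33 ± 0.38 without control 3.

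Amino acid carriers showed one host higher and one lower in APAP livers by unadjusted p. Slc7a2 encodes a carrier of arginine and other cationic amino acids that is abundant in liver. Its rings summed to 2567, 2339 and 2151 CPM in APAP livers, against 1696, 1716 and 688 CPM in control livers, the last from 3 reads. No APAP library overlapped a control, with a log2 fold change of 0.65 ± 0.30 (unadjusted p = 0.0326, adjusted p = 0.869 in edgeR), and 0.41 ± 0.21 (unadjusted p = 0.0553, adjusted p = 0.909) without control 3. The dmPGE2+APAP libraries, at 2248, 1453 and 2117 CPM, spanned the gap. Slc16a10, which carries aromatic amino acids, had 614, 666 and 810 CPM in dmPGE2+APAP livers, against 607, 603 and 361 CPM in APAP livers. These ranges did not overlap, though 614 and 607 differ by less than a single read, with a log2 fold change of 0.41 ± 0.44 (adjusted p = 1). For dmPGE2+APAP against APAP, 4 of the 50 hosts lay wholly above (Slc15a4, Slc16a10, Slc26a11 and Slco1b2) and 3 wholly below (Abcd4, Slc25a33 and Slc44a1), against 5.47% and 4.54% of all hosts.

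Hosts for lipid precursors, phosphate and ions included one with lower values in APAP livers. Slc33a1, which imports acetyl-CoA into the endoplasmic reticulum and Golgi, had 469, 292 and 447 CPM in APAP livers, against 952, 500.1 and 2522 CPM in control livers, the last from 11 reads. The groups did not overlap, though 469 and 500.1 are close. The log2 fold change was -1.15 ± 0.47 (unadjusted p = 0.0149, adjusted p = 0.827 in edgeR), and -0.91 ± 0.40 (adjusted p = 0.909) without control 3. At the site of its leading ring (novel_circ_0009336) the circular share was 52.3%, 50.4% and 43.4% in dmPGE2+APAP livers. It was 50.5%, 58.2% and 37.3% in APAP livers and 59.0% and 65.9% in control livers 1 and 2. In control 3 it was 1.42% (95% Wilson interval 0.653 to 3.07), from 6 back-splice and 416 other reads. Slc27a2, a fatty acid carrier and very long-chain acyl-CoA synthetase, had 1178, 928 and 1141 CPM in dmPGE2+APAP, 1077, 877 and 996 CPM in APAP and 1295, 1046 and 0 CPM in control livers. Slc20a2, a sodium phosphate cotransporter, had 1162, 827 and 584 CPM in dmPGE2+APAP, 883, 996 and 779.6 CPM in APAP and 893, 1039 and 1605 CPM in control livers. Slc4a4 had 689, 999 and 1072 CPM in dmPGE2+APAP, 828, 1005 and 794 CPM in APAP and 1243, 462 and 459 CPM in control livers. In these last 3 hosts the groups overlapped in each comparison and, with all 9 libraries, no log2 fold change exceeded its SE. Without control 3, Slc27a2 was at -0.31 ± 0.26 for APAP against control.

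**Figure D4:**
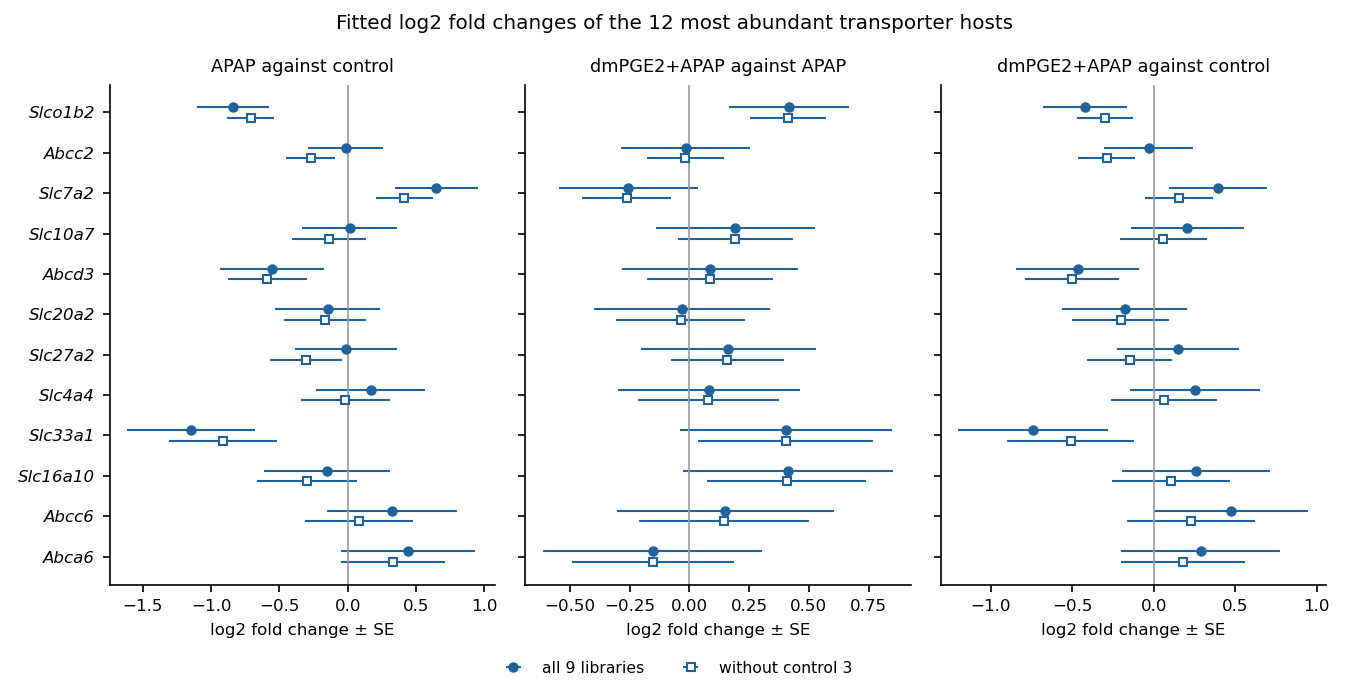
Log2 fold changes (x axis, points with SE bars, edgeR) of the 12 most abundant transporter hosts (rows), with all 9 libraries (filled circles) and without control 3 (open squares), in 3 panels for the comparisons named above them. For APAP against control, Slco1b2 is at -0.84 and -0.71, Slc33a1 at -1.15 and -0.91 and Slc7a2 at 0.65 and 0.41. In the other panels no value exceeds 0.75 in size.

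Mitochondrial, vesicular and metal carriers were mostly near the limit of counting. Slc25a13, the aspartate and glutamate carrier of the malate shuttle and the urea cycle, was the most abundant mitochondrial host, with 647, 787 and 479 CPM in dmPGE2+APAP, 488, 411 and 635 CPM in APAP and 738, 354 and 0 CPM in control livers. Slc15a4, which moves histidine and peptides out of lysosomes, had 124, 333 and 139 CPM in dmPGE2+APAP livers, against 120, 54.8 and 28.9 CPM in APAP livers. These did not overlap, though 124 and 120 differ by less than a single read. The log2 fold change of 1.5 ± 1.13 had an adjusted p of 1 in edgeR. Slc17a5, which exports sialic acid from lysosomes, Slc30a7, which loads zinc into the Golgi, and Slc35b3, which carries the sulfate donor into the Golgi, had 0 to 320 CPM across the libraries, and with all 9 libraries their groups overlapped in every comparison.

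A set of scarce hosts differed by presence in the table. Slc44a1, a choline carrier, had 12, 14 and 6 reads in APAP livers, against 0 in all 3 control livers, and 7, 3 and 0 reads in dmPGE2+APAP livers. Slc25a33, a mitochondrial pyrimidine nucleotide carrier, had 15, 14 and 9 reads in APAP livers, against 0 in all controls, and 0, 6 and 0 reads in dmPGE2+APAP livers. Its exons 2 to 6 ring held the reads of APAP 1 and 2, and a second ring those of APAP 3 and of dmPGE2+APAP 2. Both hosts were thus listed in every APAP library and in no control. Control 1 and 2 were the deepest libraries and control 3 the shallowest, and the part of depth was not tested. CPM wholly above controls, a wider pattern, was seen in 8.1% of all hosts. Both reached the minimum of reads through those APAP libraries, so a test of APAP against control adds no support, and neither passed it in edgeR (adjusted p = 0.869, and 0.909 without control 3, for both). Abcd4, needed for cobalamin release from lysosomes and named here after its values were seen, had 10, 7 and 4 reads in APAP livers, against 0 in controls, and 0, 5 and 0 reads in dmPGE2+APAP livers. The adjusted p for APAP against control was also 0.869, and 0.913 without control 3. In all 3 hosts each APAP library was also above each dmPGE2+APAP library in CPM, with an adjusted p of 1.

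Slc1a2, a high-affinity glutamate carrier, had 0 reads in all 3 APAP livers, against 19, 28 and 0 reads in control livers, and 0, 0 and 11 reads in dmPGE2+APAP livers. The unadjusted p for APAP against control was 0.012 and the adjusted p 0.82 in edgeR, and without control 3 the adjusted p was 0.831. Slc1a2 reached the minimum of reads through control and dmPGE2+APAP livers only, so this test adds no support. Slc43a3, a purine nucleobase carrier, had 0, 10 and 8 reads in dmPGE2+APAP livers, against 0 in all APAP livers, with 0, 5 and 0 reads in controls. Slco1a4, another organic anion carrier, had no reads in dmPGE2+APAP livers, 5, 5 and 0 reads in APAP livers and 0, 8 and 0 reads in control livers. Abca8b had 14, 0 and 4 reads in dmPGE2+APAP, 5, 5 and 0 reads in APAP and 0 reads in control livers. In each of these 4 hosts, every group with reads also had a library at 0. No fold is given against a group listed at 0.

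**Figure D5:**
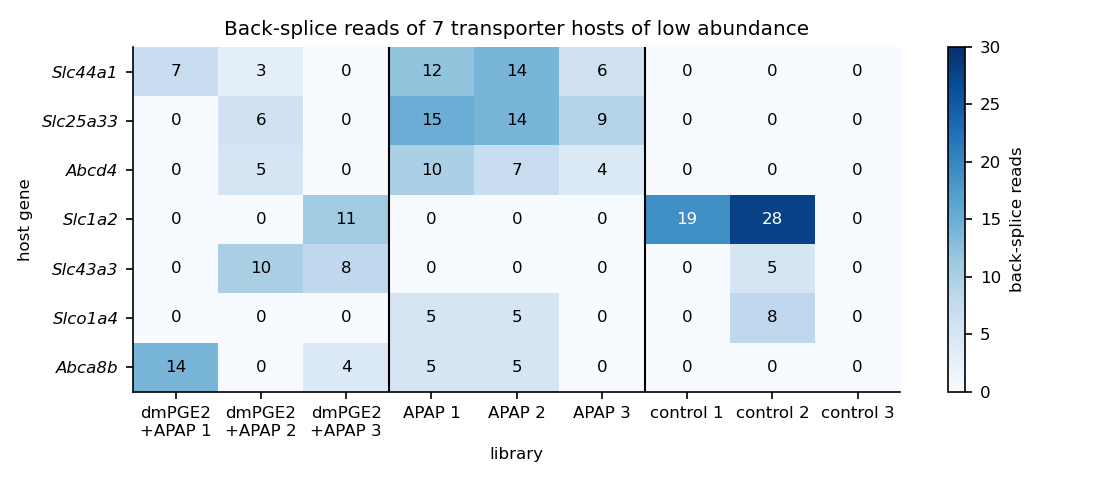
Back-splice reads, as numbers and as colour, of 7 scarce transporter hosts (rows) in the 9 libraries (columns), not scaled for depth. Slc44a1, Slc25a33 and Abcd4 have reads in all 3 APAP libraries (4 to 15 reads) and 0 in all control libraries, of which control 3 is shallow.

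For dmPGE2+APAP against control, no transporter host had an unadjusted p under 0.05 in edgeR. The median log2 fold change of the 50 hosts was 0.20, with 29 above 0, against 0.20 over all hosts. Without control 3 the medians were 0.0033 and 0.03. Slc15a4 and Slc25a15, the ornithine carrier of the urea cycle, lay wholly above control, against 8.52% of all hosts. Abcd3, Slc41a2 and Slco1b2 were among the hosts wholly below, a pattern seen in 2.8% of all hosts. For dmPGE2+APAP against APAP the median was -0.02, with 24 of 50 above 0, against 0.03 over all hosts.

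Single rings with small unadjusted p values were mostly scarce. The Slc22a23 ring (novel_circ_0002656), from an orphan member of the organic ion carrier family, had 19, 0 and 19 reads in dmPGE2+APAP, 0 reads in APAP and 8, 6 and 0 reads in control livers. The Slc41a2 ring (novel_circ_0000554), from a magnesium carrier, had 0 reads in dmPGE2+APAP livers, 0, 0 and 10 reads in APAP livers and 8, 8 and 2 reads in control livers. The longer Slc33a1 ring (novel_circ_0009337) had 7, 0 and 5 reads in dmPGE2+APAP, 0 in APAP and 0, 7 and 5 reads in control livers. The Slc15a4 ring novel_circ_0010878 had 6, 9 and 0 reads in dmPGE2+APAP, 0, 6 and 0 reads in APAP and 0 reads in control livers. Every one of these 4 rings was missing from at least 1 library of a group that also held reads. Each was tested only through the groups that held its reads, so the small p values are no support.

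Genes outside the SLC and ABC symbols were read from 2 lists. Of 46 other membrane transport genes, such as P-type ATPases, aquaporins and mitochondrial carriers with other names, 14 had rings and 10 were tested. None passed in any comparison in edgeR. The phospholipid flippase gene Atp8a1 was the 1 gene with an unadjusted p under 0.05, for APAP against control (0.00848, adjusted p = 0.645) and for dmPGE2+APAP against control (0.0105, adjusted p = 0.989). Without control 3 the adjusted p was 0.831 and 1. Its counts were 22, 0 and 11 reads in dmPGE2+APAP livers, 10, 20 and 4 reads in APAP livers and 0 in all control livers, so it too was tested through the groups where it is high. The list's median log2 fold change was 0.66 for APAP against control and 0.88 for dmPGE2+APAP against control, beside 0.15 and 0.20 over all hosts. Without control 3 it was 0.40 and 0.70, beside -0.04 and 0.03 over all hosts. Of 24 regulators of hepatic transporter genes, 13 had rings and 6 were tested, the nuclear receptor genes Nr1h4, Rxra, Hnf4a and Ppara and the lipid and sugar regulators Mlxipl and Srebf2. None had an adjusted or unadjusted p under 0.05 in any comparison, and their median log2 fold change was 0.19 for APAP against control (0.11 without control 3) and 0.07 for dmPGE2+APAP against APAP.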

How the data were processed

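Per the file headers, each circRNA has 1 row with its position and host gene and 9 columns of back-splice read counts. These deposited counts are whole numbers, which were left unscaled by the authors. The 9 other columns of per-sample values, in TPM, were not used. Lists of reads beside the junction are also in the table. Per the labels' protocols, 1 µg of total RNA was depleted of ribosomal RNA and made into libraries with strand marked by dUTP. The submitters' processing notes name HISAT2, GRCm38 and mm10. For the circRNA caller and filters, the method is not given in the sources used here.

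Counts were summed per host gene, and both levels were fitted with edgeR 4.0.16 (quasi-likelihood, TMM, 1 mean per group, all 9 libraries) on features with at least 5 reads in at least 3 libraries. CPM scales each library to a total of 1000000 back-splice reads. Alternatives were other scalings, no filter, DESeq2 1.42.0, limma-voom (limma 3.58.1), a replicate block and leaving out each library. Exons were matched to GENCODE M21. Depth was 4362 to 154449 reads. Named hosts are the 12 most abundant, the most abundant of each role class and the 4 with the smallest p in each comparison. Named rings are the 10 most abundant and the 4 with the smallest p. Abundance here is the mean CPM over all 9 libraries, with control 3 at equal weight. Members, lists and rules were chosen with earlier results of these data known. The values of 1 member host are not reported here.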

Additional observations from a re-analysis of the deposited data

How the results depend on the processing

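Control 3, with 4362 reads, limits every comparison with controls. Rings with few reads cannot be ranked at this depth. No transporter host passed in edgeR, but 1 (Slco1b2, APAP against control) passed with library totals in place of TMM (0.466% of all hosts passed) and in DESeq2 (0.551%), and the cause was not tested. In the other alternatives, including each of the 9 fits that left out a library, 0 transporter hosts passed, and 0 transporter rings passed in any. The direction was kept in 1002 of 1080 refits of 72 named host comparisons and in 777 of 810 refits of 54 named ring comparisons. The others changed sign or came to 0, and none of them passed. Counting only rings past the filter, transporter rings held 1.74% of reads in dmPGE2+APAP, 1.65% in APAP and 1.96% in control libraries.

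Deviations of same-numbered libraries from their group means correlated at -0.03 to 0.03, against -0.04 to 0.06 for libraries of different number. With few reads per ring, these values cannot show whether replicate numbers pair the samples. With the replicate number as a block, 0 transporter hosts and 0 transporter rings passed, and over all hosts 6, 5 and 3 passed, and over all rings 4, 3 and 3 passed, for APAP against control, dmPGE2+APAP against APAP and dmPGE2+APAP against control.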
